A study of Mus musculus with 7 samples.

Results

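The urea cycle and the enzymes that break down amino acids were described through 40 genes listed by function, a list made with earlier results of these data known. Of these, 37 were measured in the livers, out of 19933 genes on the arrays with a probe set (a group of probes read together) that names exactly 1 gene. For each gene the brightest such probe set was used. Ass1, which encodes argininosuccinate synthase, had only probe sets that name several genes, and Gls2, a liver glutaminase gene, and Sdsl, a serine dehydratase-like gene, had no probe set under these names. These 3 members were not analysed here. All 37 measured genes were bright, the dimmest at percentile 71.9 of all genes and the median at percentile 98.3, and no filter on low values was applied.

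Liver RNA of 7 C57BL/6 male mice aged 4 months was hybridised to Affymetrix Mouse Gene ST arrays, which the labels call biological replicates. In the knockout group (3 arrays), labelled HDAC3 knockout, mice had received an adeno-associated virus with Cre recombinase. In the rescued group (4 arrays), which the sample titles call WT, mice had received the same Cre virus plus a second virus for wild-type HDAC3 with a Flag tag, a histone deacetylase that works in nuclear receptor corepressor complexes. All mice ate chow freely and were sampled at 5 pm (ZT10, or 10 h after lights on), 2 weeks after injection. Both groups therefore carried the Cre virus, and only the rescued group carried a second vector. The floxed allele, the promoter that drives Cre and the cells that each virus reached are not given in the sources used here.

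Hepatocytes clear the nitrogen of dietary and body protein. Transaminases move amino groups onto glutamate, ammonia is joined to bicarbonate as carbamoyl phosphate, and the urea cycle turns this nitrogen into urea. The carbon skeletons are degraded by separate routes for each amino acid, several of which are largely confined to liver. In the methionine route, methionine is activated to S-adenosylmethionine, spent as a methyl donor and recovered as homocysteine, which is either methylated back to methionine or passed through cystathionine to cysteine.

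Because several methionine members moved together, the DNA just upstream of 3 of them, Cbs, Gnmt and Bhmt, is shown with that of Otc, the urea cycle member that fell. Sequences are from RefSeq (build GRCm38.p6), run 5′ to 3′ on the gene's strand and end 1 base before the annotated gene. The Cbs stretch is chr17:31637234-31637455 (minus strand), that of Gnmt chr17:46729212-46729415 (minus strand), that of Bhmt chr13:93637759-93638008 (minus strand) and that of Otc chrX:10252055-10252229 (plus strand). Capitals mark matches to any of 5 searched motifs.
Cbs: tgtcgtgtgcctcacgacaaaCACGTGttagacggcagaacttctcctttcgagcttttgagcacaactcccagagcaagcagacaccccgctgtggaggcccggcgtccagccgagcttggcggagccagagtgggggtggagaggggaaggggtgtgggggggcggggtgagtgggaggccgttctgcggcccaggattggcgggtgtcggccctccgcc
Gnmt: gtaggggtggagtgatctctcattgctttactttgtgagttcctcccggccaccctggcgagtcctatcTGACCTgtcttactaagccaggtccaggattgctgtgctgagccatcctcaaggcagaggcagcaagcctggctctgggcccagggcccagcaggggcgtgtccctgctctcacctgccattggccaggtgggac
Bhmt: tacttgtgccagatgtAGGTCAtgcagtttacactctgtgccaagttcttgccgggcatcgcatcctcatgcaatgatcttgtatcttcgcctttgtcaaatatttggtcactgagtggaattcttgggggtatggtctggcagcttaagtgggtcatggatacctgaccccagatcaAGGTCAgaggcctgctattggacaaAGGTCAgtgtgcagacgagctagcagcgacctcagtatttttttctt
Otc: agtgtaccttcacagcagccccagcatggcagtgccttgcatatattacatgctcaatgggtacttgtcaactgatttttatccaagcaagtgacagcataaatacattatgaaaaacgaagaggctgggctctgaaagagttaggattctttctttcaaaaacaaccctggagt
The motifs, searched on both strands, were the nuclear receptor hexamer AGGTCA, the C/EBP motif TTGCNNAA, the cyclic AMP response element TGACGTCA, the amino acid response element TGATGNAA and the E-box CACGTG. Bhmt held 3 hexamers, Gnmt 1 hexamer in reverse and Cbs 1 E-box, while the Otc stretch held none of these letters. Motifs were counted over full windows of 250 bases before the RefSeq start, which can reach into the annotated gene, whereas the stretches shown leave out such bases and are 222 (Cbs), 204 (Gnmt), 250 (Bhmt) and 175 (Otc) long. In the full windows, 12 of 31 windows of 29 measured members held AGGTCA (38.7%), against 14% of all 32851 windows in the table. The members' windows with it included those of Bckdhb, Uroc1 and Aass, which were called below, and those of Got1, Got2, Haao, Hgd and Tdo2, which were not. TTGCNNAA was in 9.68% of the members' windows and 9.56% of all, and CACGTG in 3.23% and 6.02%. TGATGNAA was in 3.23% and 3.45%, and TGACGTCA in 0% and 1.55%. No count was made over genes as bright as the members, so the hexamer share is not shown to be particular to them. These are matches of letters, not sites shown to be bound, and the windows of Cth and Mat1a were not in the table.

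Hdac3 itself, which checks the labels, had log2 intensities of 8.93, 8.75 and 9.07 in the knockout arrays and 9.23, 9.45, 9.55 and 9.38 in the rescued arrays. The groups did not overlap, and the difference was -0.48 (SE 0.10, adjusted p = 0.0124 in limma's test), a call lost without knockout replicate 1. Median intensities over all probe sets were 105.01 to 110.85 in knockout and 96.29 to 102.33 in rescued arrays, and the median log2 difference of all genes was 0.09. It was 0.14 over genes at or below the median level and 0.000098 over genes above it, where every member lay. Hepatocyte markers (6 of 7 measured) were alike, with none called and summed log2 levels of 16.04 to 16.09 in knockout and 16.02 to 16.04 in rescued arrays. Of 6 sinusoidal endothelial markers 1 was called lower (Clec4g), and of 6 stellate cell markers 1 was called higher (Lrat), with summed levels of 11.95 to 12.22 against 12.19 to 12.23 and 11.84 to 11.99 against 11.81 to 11.97. Neither call held in every scaling (adjusted p = 0.0575 for Clec4g after cyclic loess and 0.101 for Lrat after median centring), and each was lost without any one of 6 arrays. No marker of macrophages, bile duct cells, lymphocytes, pancreas or kidney was called on the deposited values, though Sox9 of the bile duct was higher after quantile normalization (adjusted p = 0.0406) and cyclic loess (0.0433). The bile duct markers summed to 9.00 to 9.19 in knockout and 8.80 to 8.94 in rescued arrays, and those of kidney to 7.64 to 7.78 and 7.42 to 7.60. Among these markers, all but Sox9 lay below the median level. After cyclic loess the kidney markers differed by 0.02 to 0.05. Krt19, Krt7 and Epcam of the bile duct then differed by -0.06 to 0.01, and Sox9 by 0.33. The part of these cell types in the results was not tested. In bulk liver, fewer cells of a type and less RNA per cell cannot be told apart.

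Below, levels are log2 intensities, a difference is knockout minus rescued on that scale, and "called" means an adjusted p under 0.05 in limma's moderated test with Benjamini-Hochberg adjustment over all genes. Of the 37 members, 8 were higher in the knockout livers and 2 lower. That is 21.6% higher and 5.41% lower, against 9.54% and 4.85% of all genes tested and 9.09% and 8.73% of genes above the median level. Called in either direction were 27.0%, against 14.4% of all genes and 17.8% of genes above the median level. The members' share of lower genes was thus near that of all genes and under that of the brighter genes. All 10 differences were small, from 1.21-fold to 1.49-fold, and no called member reached 1.5-fold. The median difference over the members was 0.14, against 0.09 over all genes and 0.000098 over genes above the median level. It fell to 0.09 without rescued replicate 2. After median centring, which shifts every gene alike, it was 0.05 over the members and -0.0002 over all genes. For 16 members (13 higher, 3 lower), or 43.2%, no knockout array fell within the rescued range or the reverse, against 29.6% of all genes and 31.5% of those above the median level.

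The counts moved with single arrays and with scaling. Without knockout replicate 1, 3 members were higher and 1 lower, and without rescued replicate 2 the counts were again 3 and 1. Without knockout replicate 2 or rescued replicate 3, 5 were higher and 1 lower. With the arrays rescaled, 5 were higher and 2 lower after quantile normalization and after median centring, and 6 higher and 1 lower after cyclic loess. Of all genes, 4.51% were higher and 5.32% lower after quantile normalization, 3.37% and 9.04% after median centring, and 4.38% and 5.36% after cyclic loess, so that lower calls outnumbered higher ones in each rescaling and not on the deposited values. Of genes above the median level, the higher and lower shares were 7.98% and 8.27%, 4.3% and 16.2%, and 7.76% and 8.29% in the same order. In every scaling as well as on the deposited values, 4 members were higher (Cth, Cbs, Gnmt and Bckdhb) and 1 lower (Otc). That is 13.5% of the members, against 6.67% of all genes and 11.4% of those above the median level. With both directions pooled, the share was near that of the brighter genes. By direction, 4.25% of the brighter genes were higher and 7.15% lower, so that they were more often lower and the members more often higher.

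**Figure D1:**
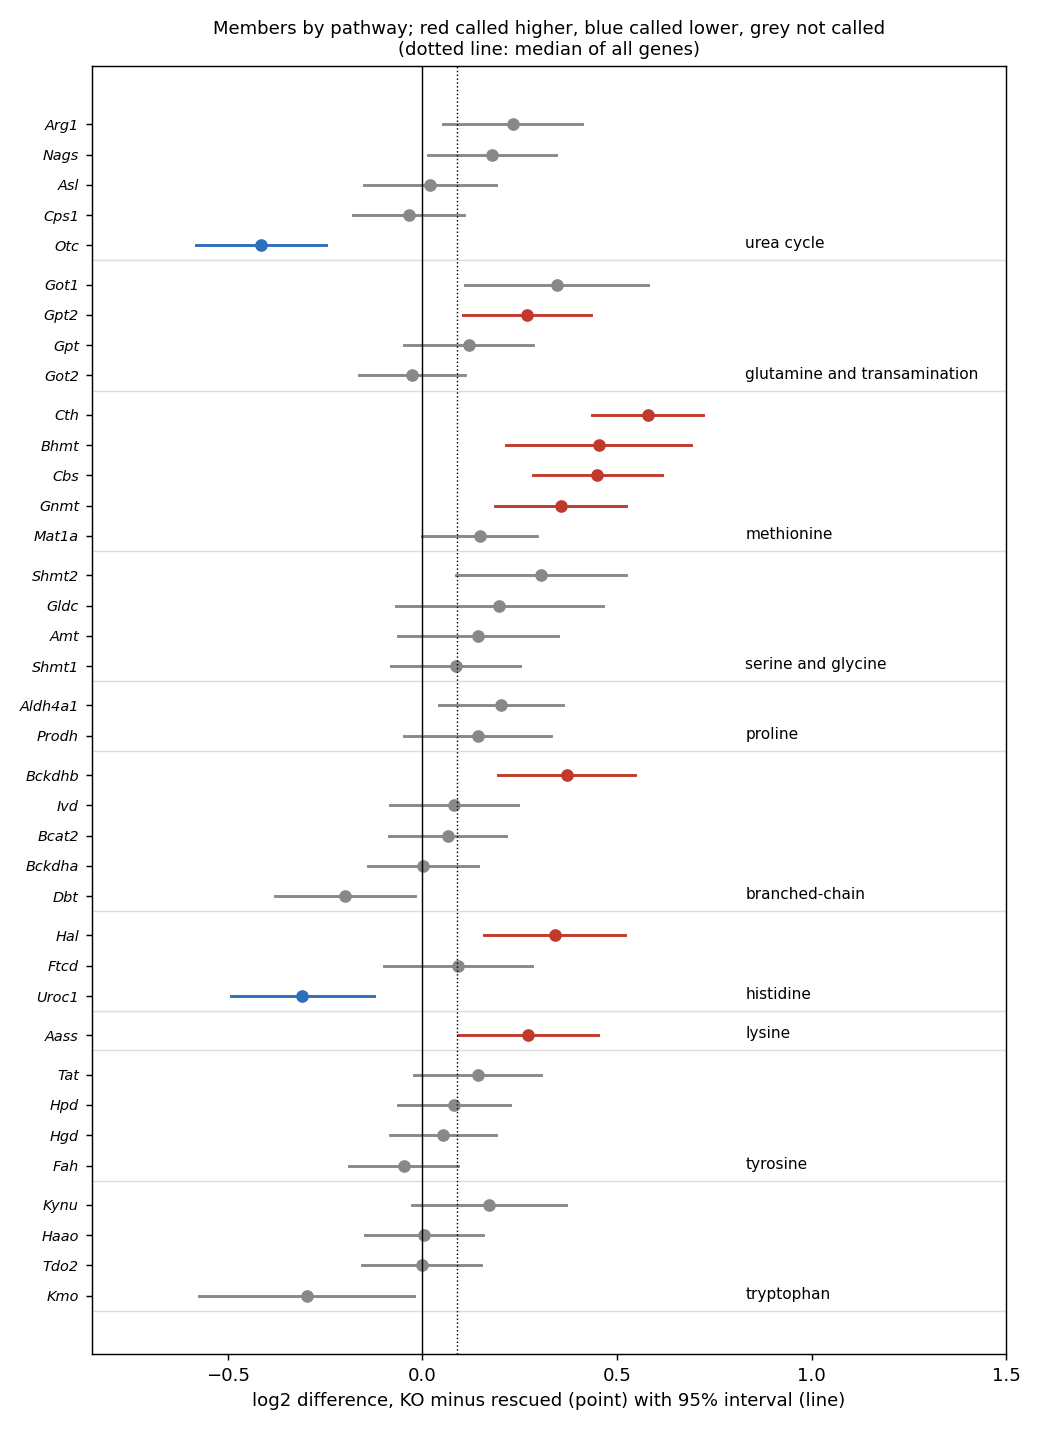
Log2 difference (knockout minus rescued) of the 37 measured members by pathway, as a point with its 95% interval from limma as a line, with red for called higher, blue for called lower and grey for not called. The methionine genes Cth, Bhmt, Cbs and Gnmt are all to the right of 0, at 0.36 to 0.58, and Otc is farthest to the left at -0.42.

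In the methionine route, 4 of 5 members were higher in the knockout livers and none lower. These were Gnmt, Bhmt, Cbs and Cth, which use S-adenosylmethionine, recover homocysteine or carry it on to cysteine. Of all genes 9.54% were higher, and of genes above the median level 9.09%. All of them but Bhmt were called in every scaling, and only Cbs and Cth whichever array was left out. Cth, which encodes the cystathionine lyase that releases cysteine, had levels of 12.32, 12.31 and 12.30 in knockout arrays and 11.79, 11.68, 11.69 and 11.77 in rescued arrays. The groups lay far apart relative to their spread, with means of 12.31 ± 0.01 (SD, n = 3) and 11.73 ± 0.06 (SD, n = 4). Cth was 1.49-fold higher (difference 0.58, SE 0.06, adjusted p = 0.000730 in limma's test). Its difference had the smallest p of all members and stayed called whichever array was left out.

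Cbs encodes cystathionine beta-synthase, which joins homocysteine to serine in the step before Cth. Its levels were 12.11, 11.95 and 12.00 in knockout arrays and 11.69, 11.60, 11.52 and 11.48 in rescued arrays, with no overlap. The difference was 0.45 (SE 0.07), or 1.37-fold, with adjusted p = 0.00595 in limma's test, and it too stayed called whichever array was left out. Gnmt, the glycine N-methyltransferase that consumes surplus S-adenosylmethionine, had 13.02, 12.97 and 12.82 in knockout against 12.68, 12.51, 12.63 and 12.52 in rescued arrays. Every knockout value was above every rescued one, and Gnmt was 1.28-fold higher (difference 0.36, SE 0.08, adjusted p = 0.0169 in limma's test). It was not called once knockout replicate 1 or rescued replicate 2 was left out, and the difference ranged over 0.31 to 0.41 across all such omissions.

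Bhmt encodes the betaine-homocysteine methyltransferase that remakes methionine with a methyl group from betaine. It had levels of 13.21, 13.11 and 13.09 in knockout arrays and 12.94, 12.43, 12.61 and 12.76 in rescued arrays. The rescued arrays were widely spread (SD 0.22) but all lower, and the difference was 0.45 (SE 0.11, adjusted p = 0.0241 in limma's test). Its other 2 probe sets differed by 0.52 and 0.59, in the same direction. It was not called after quantile normalization (adjusted p = 0.0675), nor when knockout replicate 1, knockout replicate 2, rescued replicate 2 or rescued replicate 3 was omitted. The paralog Bhmt2, named for its sequence likeness after its value was seen, differed by -0.20 (adjusted p = 0.122). Mat1a, the liver methionine adenosyltransferase that opens the route, was at 13.32 ± 0.05 in knockout and 13.18 ± 0.06 in rescued arrays, without overlap, and was not called (difference 0.15, 95% interval -0.0004 to 0.30, adjusted p = 0.141).

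**Figure D2:**
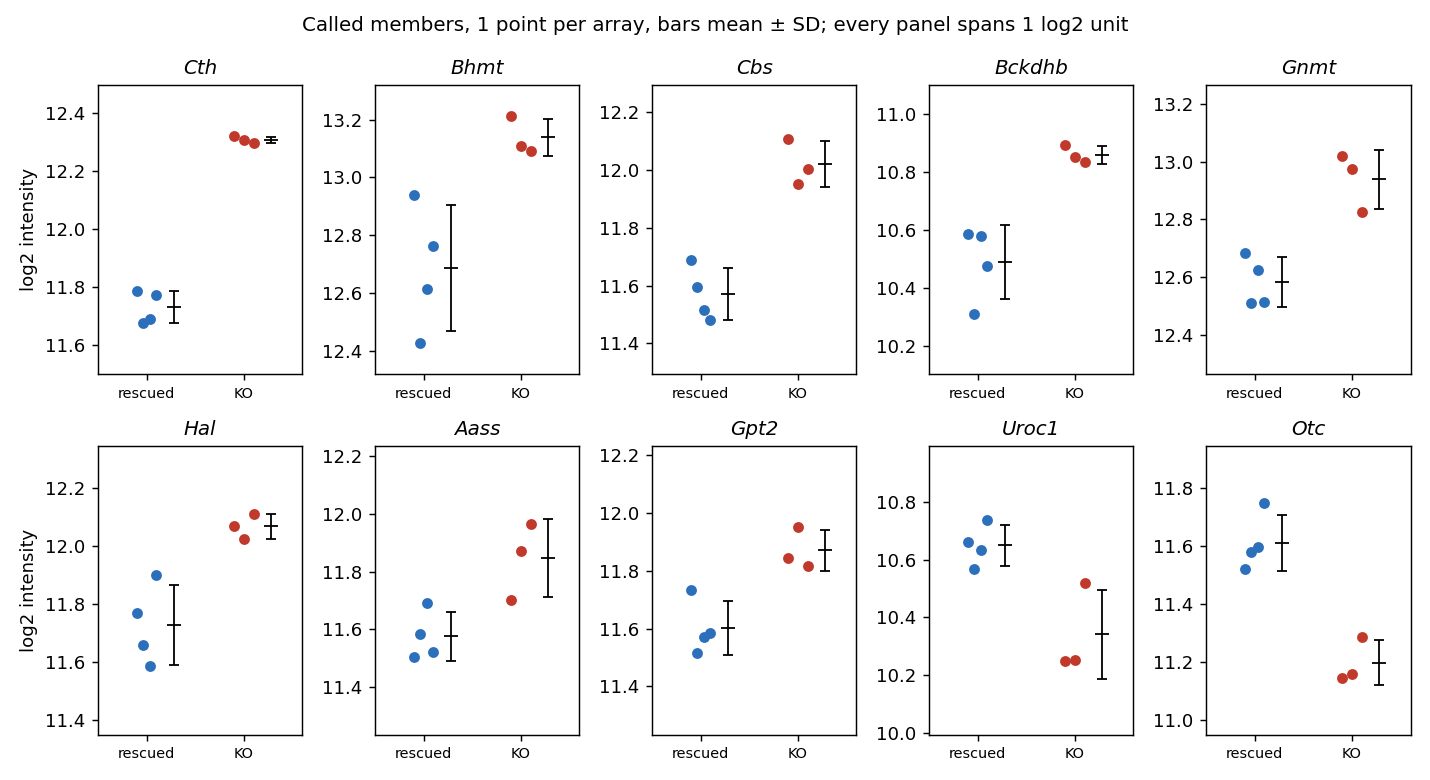
Log2 intensity of the 10 called members in each rescued (blue) and knockout (red) array, with the mean and SD as bars; each panel spans 1 log2 unit at its own level. The groups do not overlap in any panel; Cth has the tightest knockout group (SD 0.01) and Bhmt the widest rescued group (SD 0.22).

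In the urea cycle, Otc was lower in the knockout livers and the other 4 measured members were not called. Otc encodes ornithine transcarbamylase, which joins carbamoyl phosphate to ornithine in mitochondria. Its levels were 11.15, 11.16 and 11.29 in knockout arrays and 11.52, 11.58, 11.60 and 11.75 in rescued arrays. All knockout values were lower, the difference was -0.42 (SE 0.08), or 1.33-fold, and adjusted p was 0.00853 in limma's test. It was called in each of the 17 alternative analyses, as were Cth and Cbs.

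Cps1, the carbamoyl phosphate synthetase that feeds Otc, was at 13.22, 13.15 and 13.28 in knockout and 13.28, 13.25, 13.26 and 13.22 in rescued arrays. These values overlapped, and the difference of -0.03 had a 95% interval of -0.18 to 0.11. Asl, the argininosuccinate lyase, differed by 0.02 (interval -0.15 to 0.19). Arg1, the arginase that releases urea, was at 12.05 ± 0.11 against 11.82 ± 0.11. Nags, which makes the activator of Cps1, was at 9.90 ± 0.09 against 9.72 ± 0.08. Neither pair of groups overlapped, but neither gene was called (differences 0.23 and 0.18, adjusted p = 0.0743 and 0.115).

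Among the transaminases, Gpt2 was called and Got1, Got2 and Gpt were not. Gpt2, the mitochondrial alanine aminotransferase, had 11.84, 11.95 and 11.82 in knockout against 11.73, 11.51, 11.57 and 11.58 in rescued arrays. Its groups were separated by a narrow gap, and it was 1.21-fold higher (adjusted p = 0.0382 in limma's test), a call lost in all 3 rescalings and without 5 of the 7 arrays taken singly. Got1, the cytosolic aspartate aminotransferase, had the largest difference of the members not called. Its levels were 12.71, 12.63 and 12.85 in knockout and 12.45, 12.32, 12.63 and 12.14 in rescued arrays, the lowest knockout array just above the highest rescued one, for a difference of 0.35 (adjusted p = 0.0522), or adjusted p = 0.0391 with rescued replicate 3 omitted. Got2, its mitochondrial counterpart, differed by -0.03 (interval -0.16 to 0.11), with rescued arrays that agreed to an SD of 0.000539. Got2 is counted above as not overlapping, though its highest knockout array (12.7459) nearly touched its lowest rescued array (12.7462). Gpt, the cytosolic alanine aminotransferase, differed by 0.12 (interval -0.05 to 0.29).

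Of the branched-chain members, Bckdhb was higher and 4 were not called. Bckdhb and Bckdha encode the subunits of the decarboxylase in the branched-chain ketoacid dehydrogenase, and Dbt encodes its transacylase core. Bckdhb had 10.89, 10.85 and 10.83 in knockout arrays and 10.59, 10.31, 10.58 and 10.48 in rescued arrays. The groups did not overlap and it was 1.29-fold higher (difference 0.37, SE 0.08, adjusted p = 0.0166 in limma's test), a call lost only without knockout replicate 1 among the arrays left out (adjusted p = 0.0617). Its partner Bckdha differed by 0.0008 (interval -0.14 to 0.14) and Dbt by -0.20 (interval -0.38 to -0.02, adjusted p = 0.111). Bcat2, the mitochondrial transaminase of the route, differed by 0.06 and Ivd, the isovaleryl-CoA dehydrogenase, by 0.08.

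Of the 3 histidine members, Hal was higher and Uroc1 lower. Hal encodes histidine ammonia-lyase, the opening step, and had 12.07, 12.03 and 12.11 in knockout against 11.77, 11.66, 11.59 and 11.90 in rescued arrays. Its groups did not overlap (difference 0.34, SE 0.08, adjusted p = 0.0253 in limma's test). Uroc1, the urocanase that acts next, had 10.25, 10.25 and 10.52 in knockout against 10.66, 10.57, 10.63 and 10.74 in rescued arrays. Knockout replicate 3 lay close to the rescued arrays, and the difference was -0.31 (SE 0.08, adjusted p = 0.0354 in limma's test). Hal was not called after median centring (adjusted p = 0.0613) or without any one of 5 arrays, and Uroc1 not after cyclic loess (adjusted p = 0.0544) or without any one of 6. Ftcd, which takes the histidine carbon on to the folate pool, differed by 0.09 and was not called.

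Aass, the bifunctional enzyme that opens lysine degradation, was called at the edge of the threshold. Its levels were 11.70, 11.87 and 11.97 in knockout and 11.51, 11.59, 11.69 and 11.52 in rescued arrays, nearly touching between knockout replicate 1 and rescued replicate 3. The difference was 0.27 (SE 0.08, adjusted p = 0.0488 in limma's test), and the call was lost in all 3 rescalings and without any one of 6 arrays.

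None of the 4 tyrosine members was called, and their differences lay between -0.05 and 0.14. Tat, the hormone-responsive tyrosine aminotransferase, was at 13.54 ± 0.05 in knockout and 13.40 ± 0.10 in rescued arrays (interval -0.02 to 0.31). The dioxygenases Hpd and Hgd differed by 0.08 and 0.05, and Fah, the last enzyme of the route, by -0.05 (interval -0.19 to 0.09). None of the 4 tryptophan members was called either. Tdo2, which opens the kynurenine route, was at 12.85 in both groups (interval of the difference -0.15 to 0.15), and Haao, the dioxygenase that precedes quinolinate, differed by 0.005. Kynu, the kynureninase, differed by 0.17 (adjusted p = 0.191, and 0.0499 with knockout replicate 2 omitted). Kmo, the kynurenine hydroxylase, had 11.12, 11.40 and 11.77 in knockout and 11.67, 11.67, 11.73 and 11.83 in rescued arrays. Its knockout arrays had the largest SD of all members (0.33), replicate 3 lay among the rescued values, and the difference of -0.30 was not called (adjusted p = 0.119), though it was with replicate 3 omitted (adjusted p = 0.0198).

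No serine, glycine or proline member was called. Shmt2, the mitochondrial serine hydroxymethyltransferase, had 10.78, 10.83 and 10.43 in knockout and 10.35, 10.33, 10.33 and 10.50 in rescued arrays. Knockout replicate 3 fell within the rescued range, and without it the difference was called (adjusted p = 0.0142), against adjusted p = 0.0603 with all arrays and a difference of 0.30. Its cytosolic counterpart Shmt1 differed by 0.09. The glycine cleavage genes Gldc and Amt differed by 0.20 and 0.14 (intervals -0.07 to 0.46 and -0.06 to 0.35). Prodh, the proline dehydrogenase, differed by 0.14, and Aldh4a1, which completes proline conversion to glutamate, by 0.20 without overlap between groups (adjusted p = 0.0772).

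**Figure D3:**
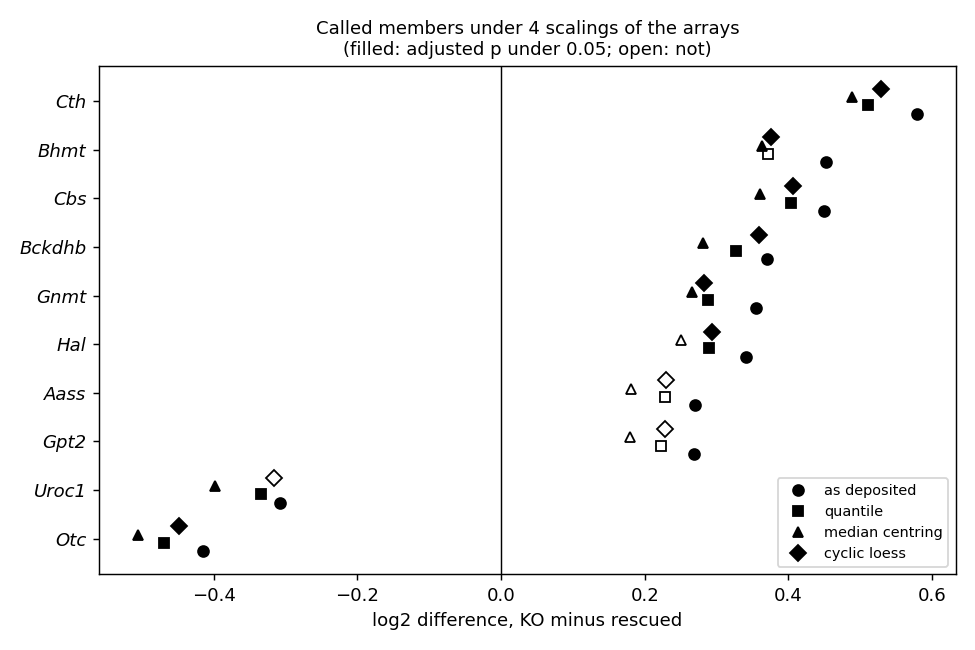
Log2 difference (knockout minus rescued) of the 10 called members on the deposited values and after quantile normalization, median centring and cyclic loess, filled where adjusted p was under 0.05. Every member keeps its sign; Cth, Cbs, Gnmt, Bckdhb and Otc are filled in all 4, while Gpt2 and Aass are filled only on the deposited values.

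Over the arrays, the members did not all follow the same mouse. Knockout replicate 1 was the highest of the 7 arrays for 14 members and the lowest for 5, and rescued replicate 2 the lowest for 12 and the highest for 1. The typical spread within a group was small, with a median SD over members of 0.08 in either group.

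The wider pathway was read through 103 other genes in 10 lists, of which 92 were measured. Of these, 12 were higher and 8 lower, or 10 and 10 after quantile normalization, 8 and 15 after median centring and 10 and 9 after cyclic loess. On the deposited values that is 13.0% higher and 8.70% lower, against 9.54% and 4.85% of all genes and 9.09% and 8.73% of genes above the median level, where 86 of the 92 lay. The median difference was 0.04, against 0.09 over all genes and 0.000098 over those above the median level. In every scaling 8 were higher and 8 lower, or 17.4% together. That compares with 6.67% of all genes and 11.4% of those above the median level (4.25% higher and 7.15% lower). The shares of all genes and of brighter genes called after each rescaling are those given above beside the members, with 16.2% of the brighter genes lower after median centring. Without knockout replicate 1 the counts were 5 and 1. Without knockout replicate 2 they were 8 and 3, and without rescued replicate 3 they were 8 and 5.

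Of 19 measured genes of nitrogen handling and transport, 4 were higher and 1 lower. The counts of this and the following lists stand beside 9.54% higher and 4.85% lower of all genes. Of genes above the median level the shares were 9.09% and 8.73%. The lists are small, and no list was tested as a set. Oat, the ornithine aminotransferase, had 13.17, 13.09 and 13.14 in knockout and 12.49, 12.30, 12.43 and 12.41 in rescued arrays. Its groups lay far apart, at a difference of 0.73 (adjusted p = 0.000285 in limma's test). Slc25a22, a mitochondrial glutamate carrier, had 10.15, 10.11 and 10.03 against 9.35, 9.52, 9.46 and 9.40, again without overlap, and was 1.59-fold higher (adjusted p = 0.000467 in limma's test). Oat and Slc25a22 stayed called whichever array was left out. Slc25a12, an aspartate-glutamate carrier, was lower by a difference of -0.38 (adjusted p = 0.0181), a call lost without knockout replicate 1 or 2. Car5a, the mitochondrial carbonic anhydrase that supplies bicarbonate, was higher by 0.32, not called after median centring (adjusted p = 0.0633) nor with knockout replicate 1, knockout replicate 2 or rescued replicate 2 omitted. The ammonia transporter Rhbg, named after its value was seen, was higher by 0.49, and omitting knockout replicate 1, knockout replicate 2 or rescued replicate 3 ended the call. The ornithine carrier Slc25a15 differed by 0.11 and glutamine synthetase Glul by 0.16, neither called and both named as counterparts after their values were seen.

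Of 16 other branched-chain genes, 2 were higher and 2 lower, and these 4 calls held in every scaling. Ppm1k, the phosphatase that activates the branched-chain ketoacid dehydrogenase, had 10.17, 10.13 and 10.22 in knockout and 9.46, 9.21, 9.64 and 9.47 in rescued arrays. The groups were well separated, and Ppm1k was 1.65-fold higher (difference 0.73, SE 0.09, adjusted p = 0.00154 in limma's test), and stayed called whichever array was left out. The opposing kinase Bckdk, named as its counterpart after its value was seen, differed by -0.24 (adjusted p = 0.155). Further down the route, Hibch of valine degradation was higher by 0.42, while the carboxylase subunit Mccc1 of leucine degradation (-0.38) and the dehydrogenase Acadsb (-0.34) were lower. Hibch was not called without knockout replicate 1 or 2, and Mccc1 and Acadsb not without knockout replicate 1.

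Of 8 other tryptophan genes, 2 were higher and 2 lower. Acmsd, which diverts the route away from NAD synthesis, had 8.97, 8.80 and 8.97 in knockout against 8.36, 8.43, 8.37 and 8.44 in rescued arrays. The groups did not overlap, at a difference of 0.51 (adjusted p = 0.00207 in limma's test) that stayed called whichever array was left out. Ido2, an indoleamine dioxygenase, was higher by 0.44, and the aminotransferases Kyat1 and Aadat were lower by differences of -0.49 and -0.39. Omitting knockout replicate 1, knockout replicate 2 or rescued replicate 3 ended the call of Kyat1, and omitting any one of 5 arrays ended those of Ido2 and Aadat. Ido2 was not called after median centring either (adjusted p = 0.0523).

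Of 12 other genes of methionine, choline and cysteine, 2 were higher and 1 lower. Chdh, the choline dehydrogenase on the way to betaine, had 9.77, 9.63 and 9.63 in knockout and 9.30, 9.42, 9.30 and 9.25 in rescued arrays. It was 1.28-fold higher (adjusted p = 0.0129 in limma's test), without overlap, and lost its call without knockout replicate 1. Csad, the cysteine sulfinate decarboxylase of taurine synthesis, had 11.25, 11.28 and 10.87 in knockout and 10.52, 10.09, 10.52 and 8.80 in rescued arrays. Rescued replicate 4 stood far below the others, the difference of 1.15 became 0.76 to 1.33 when arrays were omitted singly, and the call (adjusted p = 0.0451 in limma's test) was lost without any one of 5 arrays. Without rescued replicate 4 the difference was at its lowest, and Csad was still called. Csad was called in none of the 3 rescalings (adjusted p = 0.0626 to 0.0764). Mpst, a sulfurtransferase, was lower by a difference of -0.27 (adjusted p = 0.0254), not called with knockout replicate 1 or 2, or with rescued replicate 3 or 4, omitted.

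**Figure D4:**
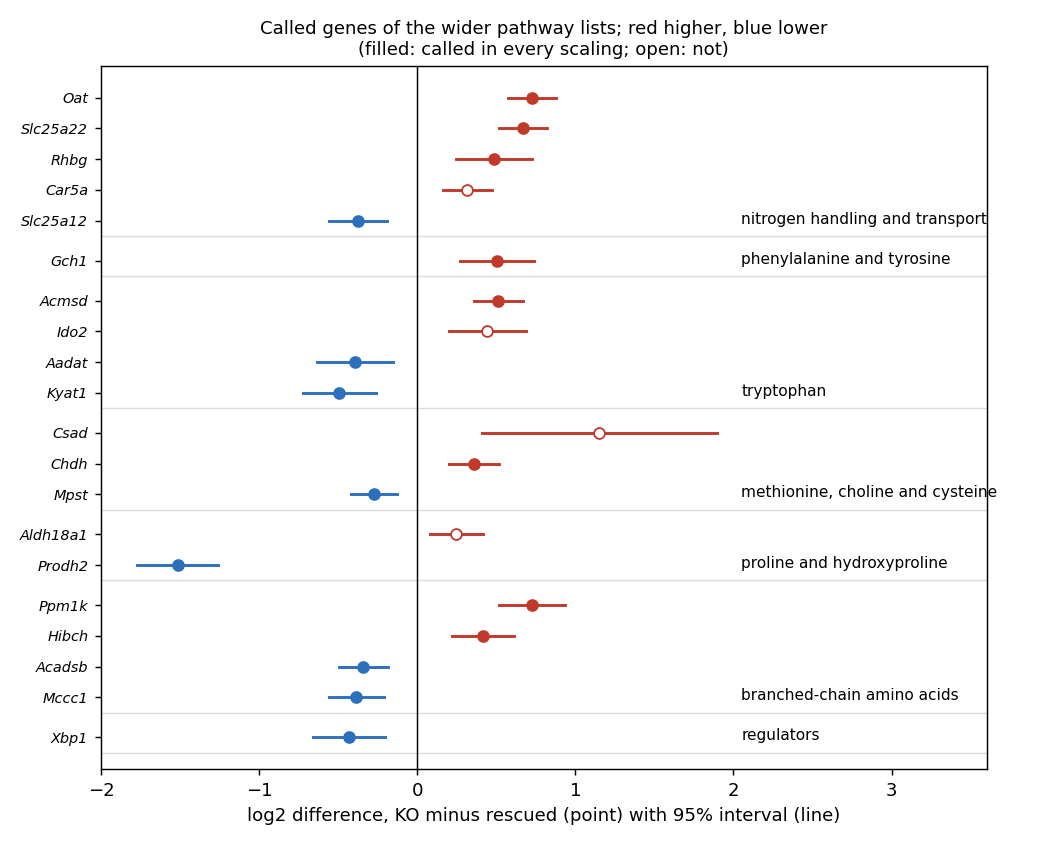
Log2 difference (knockout minus rescued) of the 20 called genes in the wider pathway lists, as a point with its 95% interval from limma as a line, with red for higher and blue for lower and open points for calls not held in every scaling. Oat, Slc25a22 and Ppm1k lie at 0.67 to 0.73, and Prodh2 lies farthest to the left at -1.52.

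Of the 4 measured phenylalanine and tyrosine genes, Gch1, which starts synthesis of the pterin cofactor of phenylalanine hydroxylase, was the one called, at a difference of 0.50 (adjusted p = 0.0157), lost without knockout replicate 1. Of 3 measured proline and hydroxyproline genes, Prodh2, the hydroxyproline dehydrogenase, was lower. Its levels were 7.88, 8.33 and 8.40 in knockout against 9.59, 9.70, 9.75 and 9.82 in rescued arrays. The difference of -1.52 (SE 0.12, adjusted p = 5.65e-05 in limma's test) was called in every scaling and whichever array was left out. Aldh18a1, which makes pyrroline carboxylate from glutamate, was higher by 0.25 with adjusted p = 0.0498, lost without any one of 6 arrays and in all 3 rescalings, where the difference was 0.12 to 0.16. None of the 9 serine, glycine, threonine and alanine genes, 3 histidine genes or 4 lysine genes was called on the deposited values with all arrays. Gcsh was lower after cyclic loess (difference -0.29, adjusted p = 0.0480 in limma's test). Psat1 and Hdc were called higher without knockout replicate 3, and Amdhd1 without knockout replicate 2.

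Of 14 measured regulators of amino acid catabolism, 1 was called, against 14.4% of all genes and 17.8% of genes above the median level. Xbp1, a transcription factor of the unfolded protein response, was lower at 11.41, 11.53 and 11.65 in knockout against 11.89, 11.90, 11.82 and 12.24 in rescued arrays, a difference of -0.43 (adjusted p = 0.0249 in limma's test) lost without knockout replicate 1 or 2. The glucocorticoid-induced factor Klf15 differed by 0.03, the glucocorticoid receptor gene Nr3c1 by 0.07, Cebpa by 0.08 and the glucagon receptor gene Gcgr by 0.04. These 4 were named after their values were seen as main hormone-linked regulators. Cebpb, likewise named, differed by 0.31 (adjusted p = 0.0508). Other regulators that were not called had larger differences than those of Klf15, Nr3c1, Cebpa and Gcgr. Hnf4a differed by -0.29 (adjusted p = 0.116 in limma's test) and was called lower without knockout replicate 3. Sirt3 differed by -0.18, without overlap between groups, and Crtc2 by -0.17. Foxo1, Atf4, Ppargc1a, Creb3l3 and Sirt5 differed by -0.05 to 0.12.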

How the data were processed

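Probe set intensities of 7 arrays were taken from the series' value table. The deposited intensity values are linear, 5.41 to 17351, and RMA and Partek are named in the submitters' processing notes, without versions; what scaling came last, and the genome build, are not given in the sources used here. The columns' medians differ, mostly through dim genes, so shares of called genes are also given for genes above the median level. Log2 was taken, gene names came from the platform annotation, and each of 19933 genes was read from its brightest probe set with 1 symbol. Knockout was set against rescued with R 4.3.3 and limma 3.58.1 (lmFit, eBayes, two-sided, no covariates). Intervals are 95% and unadjusted. The fit was tested on simulated data. Alternatives were 3 rescalings, 2 filters on dim genes, mean of probe sets, all rows, trend and robust spread, array weights, a replicate block and each array left out. All 40 members are named; from each wider list up to 4 called genes with the smallest p. Members and lists were chosen with earlier results of these data known. The labels call the arrays biological replicates. The number of arrays limits the precision. Figures used matplotlib 3.10.9.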

Additional observations from a re-analysis of the deposited data

Results flagged for a closer look

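In 58 genes the 4 rescued arrays were screened for one array far from the rest, by the gap of the farthest array over the whole range, against Dixon's 95% critical value. Chance alone gives about 1 in 20 such genes, and 4 were found, which is near that rate. The screen did not cover every gene of the wider lists. In Shmt2 the ratio was 0.880, with rescued replicate 4 highest at 10.50. In Bckdha it was 0.926, with rescued replicate 3 highest at 10.07. In Slc25a12 it was 0.933 and in Aadat 0.931, with rescued replicate 4 highest at 9.28 and 10.87.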

How the results depend on the processing

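Among 8 higher and 2 lower members, the higher count was 5 after quantile normalization and after median centring, and it ranged from 3 to 7 with 1 array left out. The lower count was 1 after cyclic loess and 1 with the replicate block, and ranged from 1 to 3 with 1 array left out. In all the remaining alternatives the higher count was 6 to 9 and the lower count 2. No called member changed sign in any alternative, and Otc, Cbs and Cth were called in all 17. Got1, not called with all arrays and genes, was called among genes above the median level (adjusted p = 0.0480), above the receptor genes (0.0456) and with trend and robust spread (0.0353). The median over members was 0.05 after median centring (-0.0002 over all genes), and 0.09 to 0.15 with 1 array left out. Over all genes 2867 were called, and 897 to 3263 with 1 array left out. The replicate numbers are shared by the groups, but same-numbered arrays deviated together in 1 of 3 pairs (r = 0.151, 0.00276 and 0.00530), and differently numbered arrays reached r = 0.148 and -0.155, so the numbers were not taken as pairs. With the replicate block Gpt2 (adjusted p = 0.0831), Aass (0.0695) and Uroc1 (0.0703) were not called, 6 members were higher and 1 lower, and 1938 genes were called.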
